A study of Mus musculus with 6 samples.

Results

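The serum amyloid A family was followed in medullary thymic epithelial cells of mice with both copies of Aire disrupted (Aire-/-) and of wild-type mice, all B6/129 F2 animals 3 to 5 weeks old. Its members were the probe sets that the platform annotation assigns to a Saa gene and to no gene outside the family, 5 of the 12422 probe sets used, and the family was chosen by its signal difference between the genotypes on these same arrays. Saa3 and Saa4 had 1 each, Saa2 had 2, and 1 was assigned to the pseudogene Saa-ps. No probe set was named for Saa1, and Saal1, which carries a similar name but lies outside the family, was counted among the neighbouring genes. Each genotype had 3 arrays, each array held RNA from thymi pooled over 5 mice, male and female, and the cells were sorted as CD45-, G8.8+, CDR1int and B7.1hi, a gate for epithelial cells of the medulla with a high level of a costimulatory molecule. The labels name no cell type to which the disruption was limited.

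Serum amyloid A proteins are small apolipoproteins that associate with high-density lipoprotein and rise steeply in plasma during inflammation. In the mouse, Saa1 and Saa2 encode the main acute phase proteins made by the liver, Saa3 is induced mainly outside the liver, in macrophages, fat and epithelia, and Saa4 encodes a constitutive form. Interleukin 1, interleukin 6 and tumour necrosis factor induce the acute phase genes through NF-kB, C/EBP and STAT3 factors. Aire is a nuclear protein of medullary thymic epithelium that promotes low-level expression there of genes typical of other organs.

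The promoters of the 4 coding genes are shown because Saa3 and Saa2 were low together in the Aire-/- cells. Their likeness does not show which transcripts the Saa2 probe sets bind, as no transcript or probe sequences were compared. Each line gives 250 bases before and 50 after the gene start from RefSeq, build GRCm38.p6, read 5′ to 3′ along the gene. Capitals mark matches on either strand to a C/EBP motif (TTNNGCAA), to an NF-kB motif (GGGNNNNNCC) and to a looser NF-kB motif (GGNNNTTTCC).
Saa1, chr7:46742931-46743230, minus strand: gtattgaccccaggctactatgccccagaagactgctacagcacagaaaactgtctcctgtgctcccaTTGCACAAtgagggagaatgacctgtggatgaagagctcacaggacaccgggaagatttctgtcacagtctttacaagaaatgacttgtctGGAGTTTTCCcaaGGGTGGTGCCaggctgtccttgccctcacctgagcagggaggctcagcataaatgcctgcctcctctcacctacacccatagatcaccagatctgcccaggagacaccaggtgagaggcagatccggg
Saa2, chr7:46751583-46751882, plus strand: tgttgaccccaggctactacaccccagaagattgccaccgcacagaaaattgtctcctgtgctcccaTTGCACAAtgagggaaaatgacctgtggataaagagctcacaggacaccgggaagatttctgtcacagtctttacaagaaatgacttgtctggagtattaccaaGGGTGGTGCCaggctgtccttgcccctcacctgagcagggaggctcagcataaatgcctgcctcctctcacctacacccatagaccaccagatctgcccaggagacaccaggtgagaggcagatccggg
Saa3, chr7:46715627-46715926, minus strand: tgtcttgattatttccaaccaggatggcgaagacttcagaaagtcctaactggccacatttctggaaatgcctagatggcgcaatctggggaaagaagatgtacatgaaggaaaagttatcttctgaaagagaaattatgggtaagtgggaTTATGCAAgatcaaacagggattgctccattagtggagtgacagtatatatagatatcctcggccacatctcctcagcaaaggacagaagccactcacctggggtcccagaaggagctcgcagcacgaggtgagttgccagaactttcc
Saa4, chr7:46732554-46732853, minus strand: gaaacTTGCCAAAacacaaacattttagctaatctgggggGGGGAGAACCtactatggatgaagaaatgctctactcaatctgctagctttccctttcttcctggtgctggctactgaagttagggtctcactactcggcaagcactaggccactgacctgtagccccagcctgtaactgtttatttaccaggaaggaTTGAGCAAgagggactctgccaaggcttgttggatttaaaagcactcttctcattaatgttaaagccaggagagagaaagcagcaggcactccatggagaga

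The Saa1 and Saa2 promoters were identical at 287 of 301 aligned positions, or 95.3%. The other pairs of promoters were identical at 43.3% to 50.9% of positions, with Saa3 nearest to Saa1 (50.9%). All 4 Saa promoters held the C/EBP motif, which 10.8% of 32851 mouse promoters of the same length held. In Saa1 and Saa2 the match read TTGTGCAA on the minus strand of the window, in Saa3 TTATGCAA on its plus strand, and Saa4 held TTTGGCAA and TTGAGCAA. The NF-kB motif was found in 3 of the 4, all but Saa3, and in 50.8% of all promoters. Its looser form, found in 5.48% of all promoters, was present in Saa1 alone as GGAGTTTTCC, and no marked match overlapped another. A STAT3 motif (TTCNNNGAA), held by 8.3% of promoters, was in 0 of the 4. The motif letters were chosen with the sequences in view, and a match is a description of the letters, not of binding.

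Saa3 was the brightest of these probe sets and lay lower in the Aire-/- cells in each of the 3 same-number pairs of arrays. Its probe set, 102712_at, gave normalized signals of 399, 434 and 306 on Aire-/- arrays 1 to 3, against 969.9, 1185 and 750.1 on wild-type arrays 1 to 3. Signals are in arbitrary units after quantile normalization, which gives all arrays the same distribution. Every Aire-/- array lay below every wild-type array, and within each genotype array 2 was the highest and array 3 the lowest. The geometric mean was 375 in Aire-/- cells (SD 0.26 on the log2 scale, n = 3) and 952 in wild type (SD 0.33, n = 3), a log2 difference of -1.34 ± 0.24 (SE), or 2.54-fold lower in Aire-/- cells.

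The pairs gave nearly the same Saa3 difference. On the log2 scale, Aire-/- minus wild type was -1.28 for arrays 1, -1.45 for arrays 2 and -1.29 for arrays 3, so the SE taken over pairs was 0.054, against 0.24 with the arrays unpaired. The values as deposited were 380.4, 540.9 and 350.1 in Aire-/- cells, against 797.4, 1243 and 676.3 in wild type. Their groups did not overlap either, and the pair differences were -1.07, -1.20 and -0.95.

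The Saa2 probe set 103465_f_at was also lower on every Aire-/- array. It gave 46.6, 36.8 and 46.9 in Aire-/- cells, against 109, 178 and 104 in wild type. The Aire-/- arrays lay close together, and wild-type array 2 stood above the other wild-type arrays. The geometric means were 43.2 (SD 0.20, n = 3) in Aire-/- cells and 126 (SD 0.43, n = 3) in wild type, a log2 difference of -1.55 ± 0.27 (SE), or 2.93-fold lower in Aire-/- cells. The pair differences of -1.23, -2.28 and -1.14 were less even than those of Saa3, the largest being that of arrays 2, and the SE over pairs was 0.36. Leaving out both arrays numbered 2, a setting chosen with the values in view, the difference was -1.19 for Saa2 and -1.27 for Saa3.

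A second Saa2 probe set, 100333_at, showed no separation of the genotypes. It gave 25.1, 16.0 and 9.7 in Aire-/- cells, against 43.2, 16.7 and 20.2 in wild type. The groups overlapped, and the log2 difference of -0.64 ± 0.58 (SE) was close to its error. All 3 pairs lay below 0, at -0.79, -0.06 and -1.06, but on the values as deposited pair 2 was at 0.19. Leaving out 1 array moved the difference between -0.97, without Aire-/- array 1, and -0.23, without wild-type array 1.

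Both Saa2 probe sets are named through the platform annotation. In the RefSeq gene table each of Saa1 and Saa2 lists the other's name as an older synonym. The suffix _f marks a probe set whose probes can bind several members of a family. The signal called Saa2 here may therefore include Saa1 transcripts, and the probes' positions were not used here.

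Saa4 and the pseudogene were too dim to compare. Saa4 gave 2.02, 3.13 and 2.78 in Aire-/- cells, against 0.2, 0.833 and 6.32 in wild type. Only wild-type array 3 exceeded 5.53, the pooled 40th percentile, below which signals were treated as dim. The Saa-ps probe set gave 4.25, 0.667 and 1.05 in Aire-/- cells, against 4.07, 1.3 and 0.467 in wild type, and no array exceeded that limit. No fold is given for either.

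**Figure D1:**
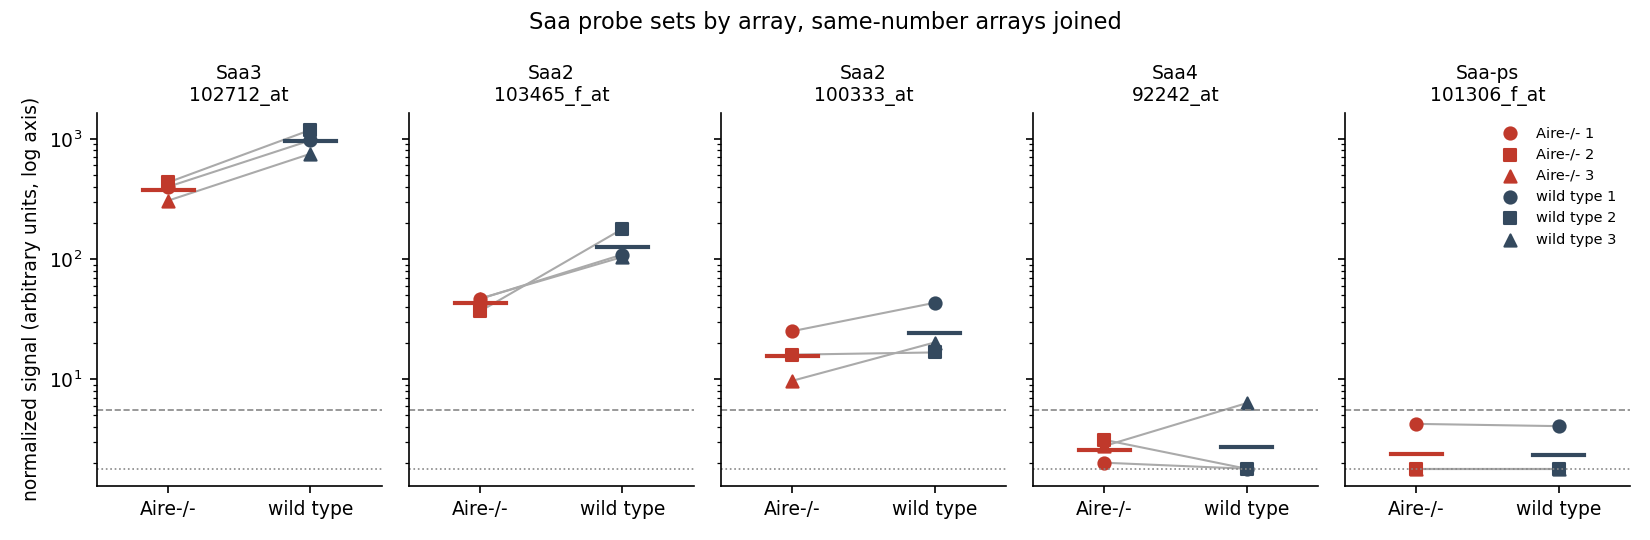
Normalized signal (arbitrary units, log axis) of the 5 Saa probe sets on each Aire-/- array (red) and wild-type array (dark), with grey lines joining arrays of the same number and bars at the geometric means. The dashed line is the dim limit of 5.53 and the dotted line the floor of 1.8, to which lower signals were raised; Saa3 and the 103465_f_at probe set of Saa2 lie lower in all 3 pairs, and Saa4 and Saa-ps lie mostly under the limit.

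In the limma fit across all genes, the 2 family genes that passed the filter on dim signals, Saa2 and Saa3, were both lower in Aire-/- cells at a Benjamini-Hochberg adjusted p under 0.05. In that fit 1.33% of 5950 tested genes were lower and 0.387% were higher, and an unadjusted p under 0.05 gave 8.32% and 6.82%. Blocking on the array number, 3.7% were lower and 2.59% higher after adjustment. All 3 Aire-/- arrays lay below all 3 wild-type arrays for 10.7% of tested genes. The family was chosen with results of this contrast known, so these calls describe the members and support nothing further. Both genes lay above the dim limit on all 6 arrays, so neither passed the filter through 1 genotype alone. Neither passed on the values as deposited, after median scaling, without a filter on dim signals, with any 1 array left out or without both arrays numbered 2, and both passed with the replicate number as a block. Of all tested genes, 2.71% had a lower difference than Saa2 and 4.17% a lower one than Saa3.

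**Figure D2:**
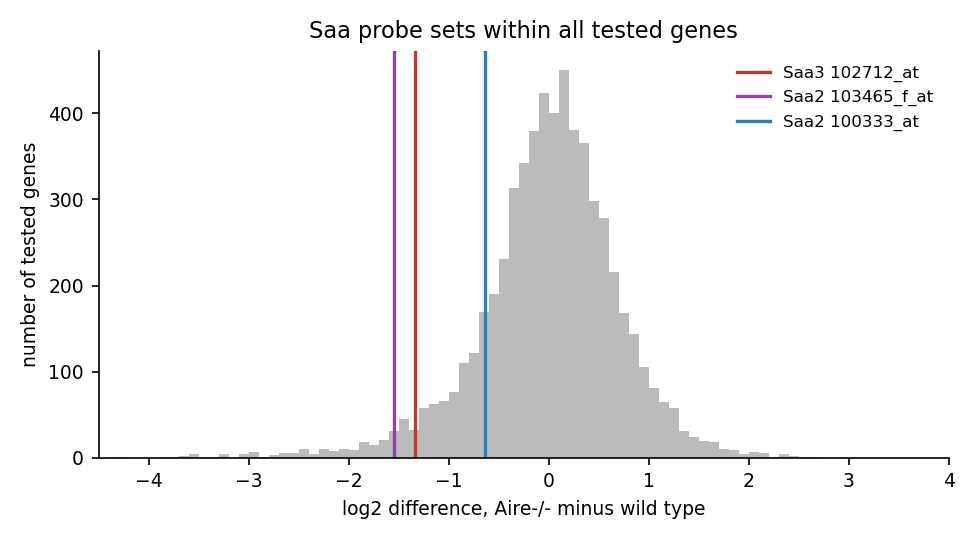
Histogram of the log2 difference, Aire-/- minus wild type, over 5950 tested genes, with vertical lines at Saa3 (-1.34) and at the Saa2 probe sets 103465_f_at (-1.55) and 100333_at (-0.64). The first 2 lie in the low tail, and the third lies nearer to the bulk of genes.

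The Saa genes lie together on mouse chromosome 7, and 11 of their 12 tested neighbours did not pass the test. In RefSeq order the cluster runs Saa3, Saa4, Saa-ps, Saa1 and Saa2, with 1 long non-coding gene, Gm31882, between Saa3 and Saa4. Of the 10 nearest genes on each side with a probe set of their own, 12 of 20 were tested. Of these 0 fell and 1 rose in the limma fit, where 1.33% and 0.387% of all tested genes did so. At an unadjusted p under 0.05 the neighbour counts were 1 and 1, near the shares of 8.32% and 6.82% over all tested genes. Their median log2 difference was -0.29, against 0.05 over all tested genes.

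Saal1, next to Saa3, gave 7.28, 8.03 and 7.63 in Aire-/- cells, against 10.1, 16.9 and 13.4 in wild type. The groups did not overlap, but the difference of -0.78 ± 0.36 (SE) did not pass (adjusted p = 0.337 in the limma fit). Tph1, the gene beyond it and the first enzyme of serotonin synthesis, rose in Aire-/- cells, with 58.2, 44.1 and 27.0 against 9.47, 4.07 and 12.6 in wild type (log2 difference 2.39 ± 0.46, limma adjusted p = 0.035). A dim second probe set of Tph1 gave 0.27, and the call was lost without Aire-/- array 1 or 2 and without any 1 wild-type array. Nav2, the farthest of the genes after Saa2, gave 44.6, 88.5 and 140 in Aire-/- cells, against 247, 419 and 264 in wild type (-1.88, limma adjusted p = 0.051, or 0.00595 with the replicate number as a block). In RefSeq order Csrp3, E2f8 and Nav2 were the genes at ranks 70, 71 and 76 from the cluster. The other neighbours lay at rank 19 or nearer. On the Saa2 side Gtf2h1, a subunit of a general transcription factor, and Ldha, a lactate dehydrogenase, differed by 0.37 and 0.05, and neither passed. Among the remaining tested neighbours the differences were 0.37 for Abcc8, -0.12 for Nomo1, -0.28 for Myod1, -0.31 for Tsg101, -0.37 for Kcnj11, -0.80 for E2f8 and -1.16 for Otog, and none passed. Abcc6, Kcnc1, Sergef, Ldhc, Uevld, C86187, Ptpn5 and Csrp3 were too dim to be tested.

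**Figure D3:**
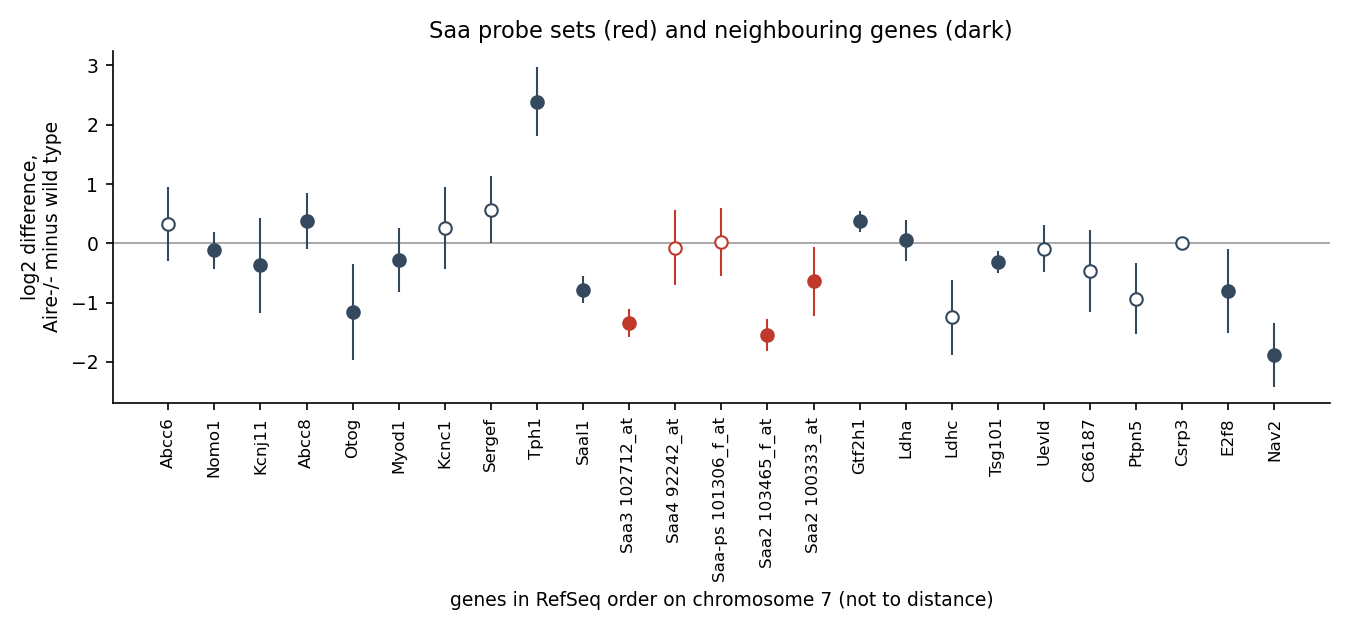
Log2 difference (Aire-/- minus wild type) of the Saa probe sets (red) and of the 10 nearest genes on each side with a probe set (dark), in RefSeq gene order and not to distance. Error bars are SEs from the spread of 3 arrays in each genotype, and open points are probe sets too dim to be tested; Saa3 and Saa2 103465_f_at lie low, while Tph1 stands high at 2.39.

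The genes most like Saa3 and Saa2 over the 6 arrays also lay lower in Aire-/- cells, which the measure itself requires. Likeness was Pearson's r of log2 signal over 6 arrays, given as a description. As both Saa genes were lower on every Aire-/- array, a gene with r near 1 has to share that direction. The 5 genes nearest to Saa3 were Ctrb1, a pancreatic chymotrypsinogen (r = 0.998), Calml4 (0.991), Drc1, a component of motile cilia (0.991), Sowaha (0.991) and the keratin gene Krt84 (0.99). Of these Ctrb1 passed in the limma fit, with 16.9, 17.6 and 12.1 in Aire-/- cells, against 49.3, 69.6 and 39.5 in wild type. A second probe set of Drc1 gave -0.32, and a dim one of Krt84 gave -0.15. The 5 nearest to Saa2 were Cyp2b19, an epidermal cytochrome (r = 0.997), Mt4, a metallothionein of stratified epithelium (0.986), Camp, the antimicrobial cathelicidin (0.984), Gfi1b, a transcriptional repressor of blood cells (0.983), and Il12b, a cytokine subunit (0.981). Cyp2b19, Mt4 and Camp passed, and Gfi1b and Il12b did not. Mt4, Gfi1b and Il12b had entered the test through the wild-type arrays alone. The calls of Ctrb1 and Cyp2b19 were lost with any 1 array left out, and that of Camp with any but wild-type array 1. Without any 1 wild-type array Mt4 was not bright enough on 3 arrays to be tested. Without a filter on dim signals its call was lost (limma adjusted p = 0.114), as were those of Ctrb1, Cyp2b19 and Camp. Cyp2b19 gave 18.6, 15.7 and 17.3 in Aire-/- cells, against 46.6, 73.3 and 42.3 in wild type, repeating the high wild-type array 2 of Saa2.

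Saa2 and Saa3 were not each other's nearest genes. Saa2 ranked 77 among genes like Saa3 and Saa3 ranked 93 among genes like Saa2, with r = 0.936. On deviations from the genotype means, which leave out the difference between genotypes, r between them was 0.438. By that measure the nearest genes were Krt27, Glmp and Prkcz for Saa3 (r of 0.999, 0.998 and 0.997) and Lias, Lsm3 and Spice1 for Saa2 (0.994, 0.988 and 0.986). Their log2 differences ran from -0.59 for Spice1 to 0.09 for Prkcz, and none of the 6 passed. Another probe set of Prkcz gave 1.41. Saa4 and Saa-ps lay at or near the floor and were given no likeness.

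The cytokines and transcription factors that induce serum amyloid A did not pass in either direction. Of 30 listed inducers and signalling genes 27 were on the array and 19 were tested. In the limma fit 0 were lower and 0 higher, where 1.33% and 0.387% of all tested genes were. An unadjusted p under 0.05 gave 2 and 2 in this list, against 8.32% and 6.82% of all tested genes. Their median log2 difference was -0.02, against 0.05 over all tested genes. Il6, Il1a, Il1b and Il11 were too dim to be tested, and Tnf gave 62.4, 41.0 and 94.5 in Aire-/- cells, against 39.5, 42.4 and 73.9 in wild type. The smallest p in this list belonged to Socs3, a feedback inhibitor of cytokine signalling (-0.91, adjusted p = 0.254), Il6st, the shared signalling chain of interleukin 6 receptors (-0.87, 0.257), Stat3 (0.87, 0.276) and Jak1 (0.66, 0.327). Stat3 and Socs3 thus pointed in opposite directions, and second probe sets gave 1.17 for Stat3, -0.73 for Socs3 and -0.80 for Il6st. Cebpa, Cebpb and Cebpd, the C/EBP factors, differed by -0.73, -0.56 and -0.32, and none passed.

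Among plasma proteins that rise or fall with serum amyloid A in the liver, Fgg, Itih3 and Lbp were lower. Of 25 listed acute phase genes 22 were on the array and 17 were tested. In the limma fit 3 fell and 0 rose, where 1.33% and 0.387% of all tested genes did so. An unadjusted p under 0.05 gave 8 and 3. Over all tested genes these unadjusted shares were 8.32% and 6.82%. The median was -0.89. Fgg, a fibrinogen chain, gave 0.467, 2.7 and 4.93 in Aire-/- cells, against 27.3, 41.0 and 31.9 in wild type, at least 5.95-fold lower (limma adjusted p = 0.00668). Itih3, a chain of a plasma protease inhibitor, gave 1.68, 0.817 and 1.05 in Aire-/- cells, all under the floor, against 13.1, 12.2 and 19.2 in wild type, at least 2.62-fold lower (adjusted p = 0.0166). The call of Itih3 was lost without Aire-/- array 2 (adjusted p = 0.0512), and without any 1 wild-type array neither Fgg nor Itih3 was bright enough on 3 arrays to be tested. Without a filter on dim signals the limma call of Fgg was lost (adjusted p = 0.0847) and that of Itih3 was kept (0.0358). "At least" divides the wild-type mean by the dim limit, since no Aire-/- array exceeded it. Both are among 4 of the 17 tested genes that passed the filter through the wild-type arrays alone.

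Lbp, which hands bacterial lipopolysaccharide to its receptor, fell to 3.82, 6.0 and 5.58 in Aire-/- cells, against 14.3, 23.6 and 19.5 in wild type (-1.89 ± 0.38, limma adjusted p = 0.0386), a call lost with any 1 array left out. Hp, haptoglobin, gave 17.5, 11.7 and 9.87 in Aire-/- cells, against 74.9, 37.2 and 29.9 in wild type, without overlap (-1.79 ± 0.40, adjusted p = 0.0569, or 0.00581 with the block). With the block Fgb, another fibrinogen chain, also passed as lower (limma adjusted p = 0.0447), having entered the test through the wild-type arrays alone. Serpina3n, a protease inhibitor, passed with the block as higher (1.28, limma adjusted p = 0.0439, against 0.181 without it). Crp gave -0.02, and the metal-binding genes Mt1 and Mt2 lay at 0.95 and 0.66 without passing. Hamp gave 16.9, 36.0 and 36.8 in Aire-/- cells, against 10.1, 6.48 and 24.7 in wild type. Its groups overlapped and it did not pass (1.27, limma adjusted p = 0.265).

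Among receptors of serum amyloid A and partners in high-density lipoprotein, 13 of 22 listed genes were tested. Of these 1 fell and 0 rose in the limma fit, where 1.33% and 0.387% of all tested genes did so. The list median was -0.27. An unadjusted p under 0.05 gave 2 and 1, against 8.32% and 6.82% of all tested genes. Apoa1, the main protein of these particles, which serum amyloid A displaces in inflammation, gave 11.8, 7.38 and 10.5 in Aire-/- cells, against 43.3, 51.9 and 86.8 in wild type (-2.58 ± 0.36, limma adjusted p = 0.00904). The call was lost without Aire-/- array 2 (adjusted p = 0.0512) and without wild-type array 3 (0.0821). It was also lost without a filter on dim signals (0.0847) and without both arrays numbered 2 (0.181). Apoc1, another apolipoprotein (-0.82, adjusted p = 0.317), Ager, a receptor of advanced glycation products (0.91, 0.329), and Scarb1, the receptor of high-density lipoprotein (-0.80, 0.344), did not pass. The receptor gene Fpr2 was dim on all 6 arrays.

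Over the 3 lists together 4 of 49 tested genes fell and 0 rose, where 1.33% and 0.387% of all tested genes did so. Fgg and Itih3, among those that fell, passed the filter on dim signals through the wild-type arrays alone. Without that filter 1 gene of the lists was lower, and 12 genes of the whole array. With the block the counts were 6 and 1, where 3.7% and 2.59% of all tested genes passed. Fgg, Itih3 and Fgb, among those 6, had entered the test through the wild-type arrays alone. The lists were chosen with earlier results of these arrays known.

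**Figure D4:**
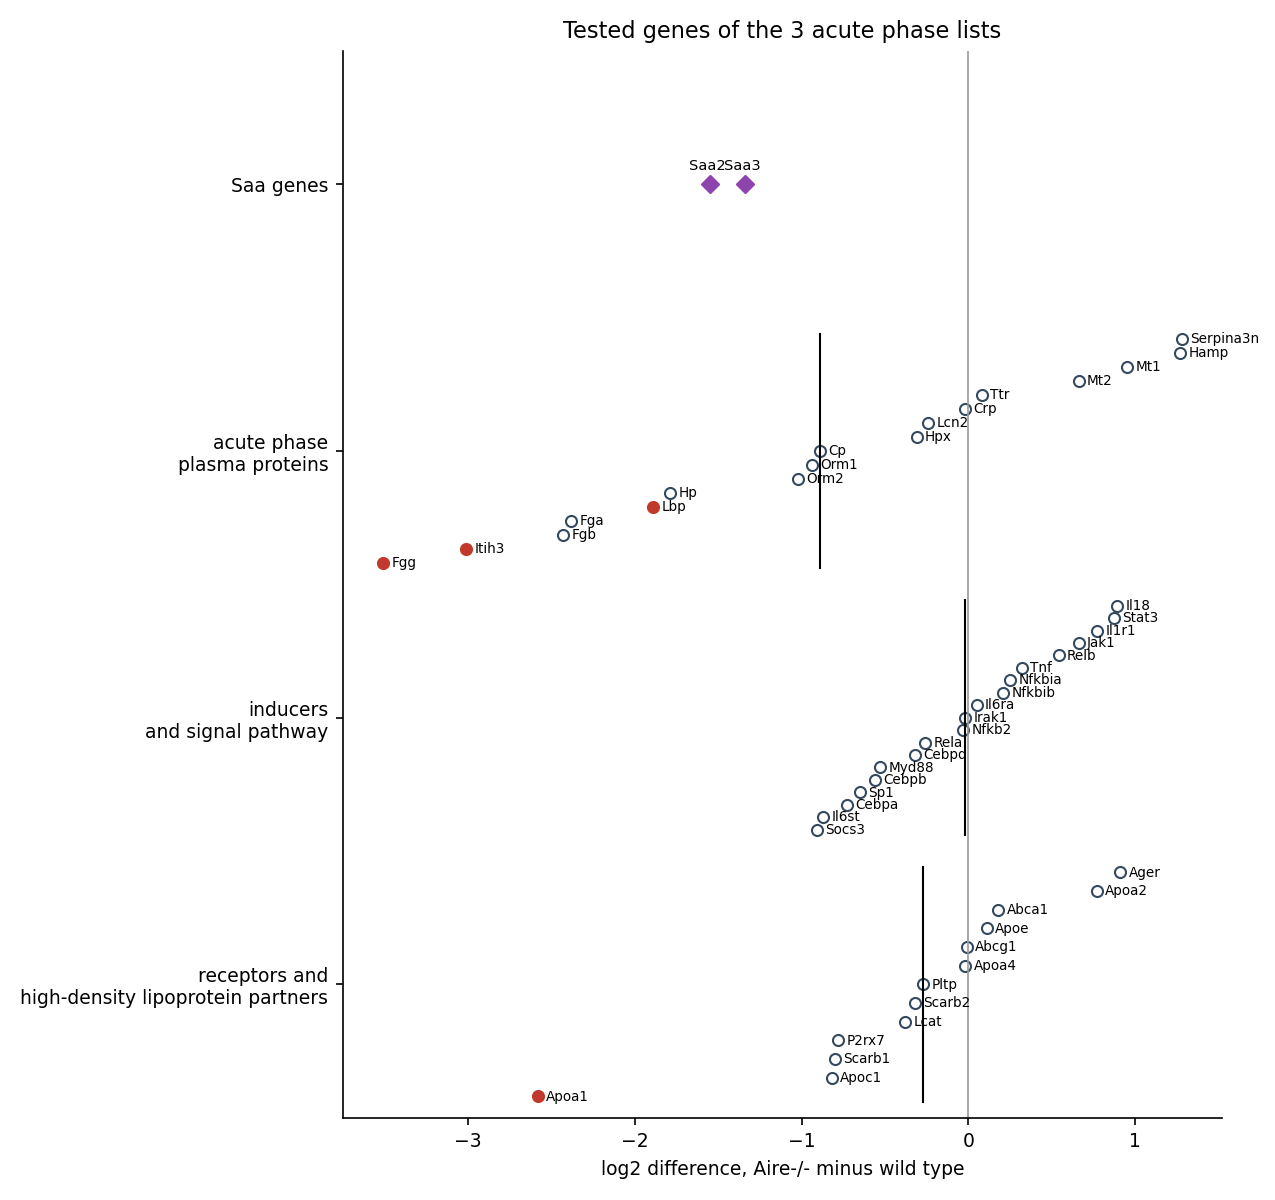
Log2 difference (Aire-/- minus wild type) of the tested genes of the 3 acute phase lists, with Saa2 and Saa3 as diamonds above them. Filled points passed in the limma fit and black bars are list medians (-0.89, -0.02 and -0.27); Fgg, Itih3 and Lbp of the plasma proteins and Apoa1 of the lipoprotein partners are the filled ones.

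Markers of other cell types were read beside the Saa values, since the arrays measure sorted pools in which fewer cells of a type and less RNA per cell cannot be told apart. The summed signal of 11 granulocyte markers was 106, 107 and 124 on Aire-/- arrays, against 305, 859 and 497 on wild-type arrays. Camp, S100a8 and S100a9, which made up most of the wild-type sums, were lower and lay above the dim limit on all arrays. Ly6g, Ltf and Ngp were also lower, but passed the filter through the wild-type arrays alone. Of 8 tested granulocyte markers 6 were thus lower in the limma fit, 3 of them by that route, where 1.33% of all tested genes were. Mpo (-1.80) and Csf3r (0.72) did not pass, Prtn3 (0.83) was too dim to be tested, and Elane and Ctsg were dim on all arrays. For 11 macrophage and dendritic cell markers the sums were 249 to 273 in Aire-/- cells and 291 to 408 in wild type. Of these markers 6 were tested and 0 passed. An unadjusted limma p under 0.05 gave 2 lower and 1 higher, where 8.32% and 6.82% of all tested genes were. Cd14 gave 68.3, 43.9 and 32.3 in Aire-/- cells, against 168, 207 and 92.2 in wild type. Without Cd14 the sums overlapped. Within that list Cd14 gave -1.68 (limma adjusted p = 0.0626) and Cd68 1.65 (0.0661), both past the threshold with the block (0.00595 and 0.0234), while Itgam and Marco were dim on all arrays. For 6 hepatocyte markers the sums were 46.3 to 66.2 in Aire-/- cells and 89.3 to 123 in wild type, and the urea cycle enzyme Cps1 was lower, having passed the filter through the wild-type arrays alone. Ttr (0.08) and Pck1 (-0.51) were tested and did not pass. The sums of cortical epithelial, adipocyte, fibroblast, endothelial and T lineage markers overlapped between genotypes. The CD45- gate is meant to leave out blood cells, granulocytes and macrophages included. The part of these cells in the Saa differences was not tested.

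The sorted cells carried the epithelial genes Krt8, Krt18, Epcam and H2-Aa on all arrays, while Krt5 and Krt14 were dim. Epcam gave 102, 79.8 and 86.9 in Aire-/- cells, against 234, 251 and 130.5 in wild type (-1.14, limma adjusted p = 0.11, or 0.0295 with the block), and Krt18 gave 1.04 (0.209, or 0.0499 with the block). Summed over 12 markers of thymic epithelium, the signal was 3764 to 4246 in Aire-/- cells and 3118 to 3638 in wild type. H2-Aa, at 2331 on each Aire-/- array and 1859 to 2045 in wild type, made up most of each sum. Quantile normalization gives equal ranks equal values, so the repeated 2331 reflects its rank and not the spread of measured signal. Without H2-Aa the sums overlapped, at 1432 to 1915 in Aire-/- cells and 1247 to 1592 in wild type. Ratios of 3′ to 5′ beta-actin signal, a sign of RNA quality, were 4.38, 5.75 and 13.4 on Aire-/- arrays 1 to 3 and 5.42, 95.8 and 13.8 on wild-type arrays 1 to 3, so wild-type array 2 stood apart, the array on which Saa3 and the 103465_f_at probe set were brightest. The same ratios for Gapdh were 5.94, 10.9 and 16 on Aire-/- arrays 1 to 3 and 8, 87.9 and 26.3 on wild-type arrays 1 to 3. By that measure wild-type array 3 also exceeded every Aire-/- array. Without wild-type array 2 the log2 differences were -1.16 ± 0.24 for Saa3 and -1.31 ± 0.13 for Saa2, and the groups still did not overlap. The Aire probe set itself was higher in Aire-/- cells (202, 297 and 211, against 59.9, 96.4 and 138), and as the labels do not give the disrupted part of the gene, it does not check the genotypes.

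**Figure D5:**
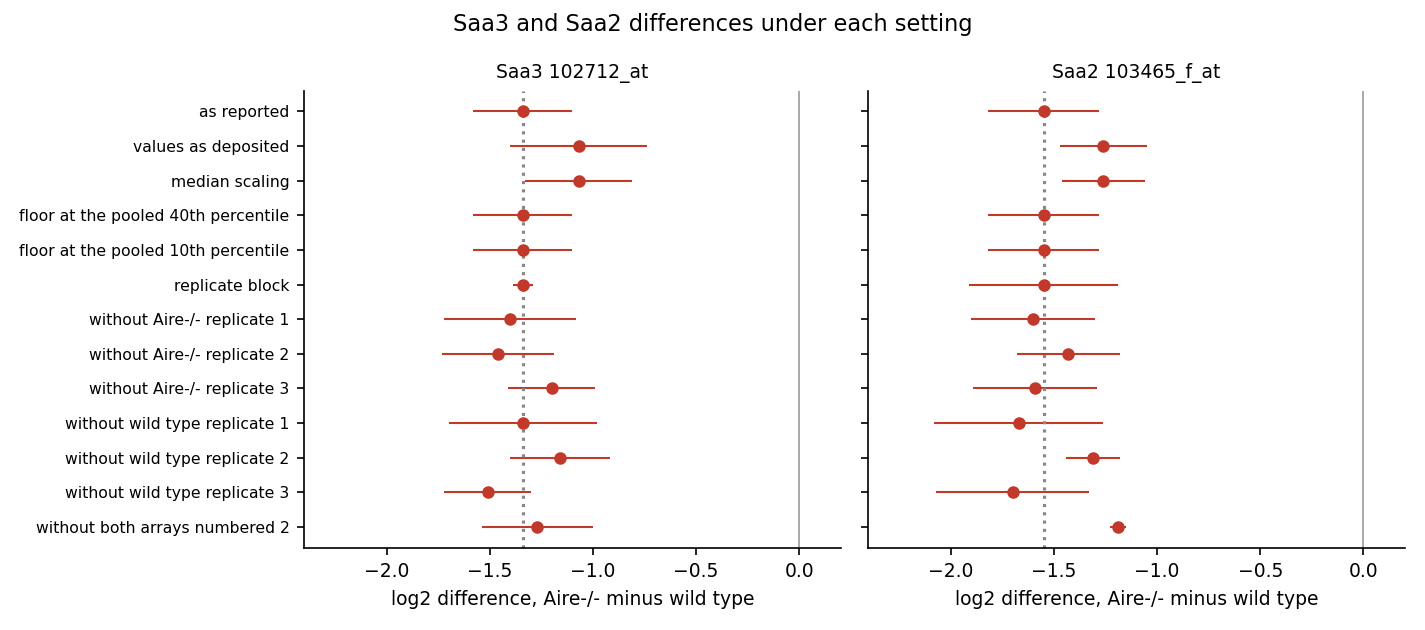
Log2 difference (Aire-/- minus wild type) with SE of Saa3 and of the 103465_f_at probe set of Saa2 as reported and under each other setting, the dotted line marking the reported value. All values lie between -1.70 and -1.07, all below 0, and the SE of Saa3 is smallest with the replicate block, at 0.05.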

How the data were processed

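Per the labels, RNA was amplified in 2 T7-based rounds, which favours the 3′ ends of transcripts. What was deposited is a linear intensity for each probe set, whose software, background correction and scaling were not given in the sources used here. Removing 66 controls from 12488 left 12422 probe sets. Genes were named from the platform annotation and, by Entrez identifier, RefSeq (10817 of 10833 with 1 gene).

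Arrays were quantile normalized, since trimmed means ranged from 19.6 to 26.9; a floor was set at 1.8, the 20th percentile over all arrays, and log2 was taken. Each gene was represented by its brightest probe set and tested if 3 or more of 6 arrays exceeded 5.53, the 40th percentile over all arrays (5950 of 8251 genes). limma 3.58.1 in R 4.3.3 (variance trend, 2-sided, Benjamini-Hochberg) gave the tests and was tested on simulated data. Saa probe sets are given without a test. SEs of Saa are from group SDs and those of other genes from limma. P-values measure the spread between pools, which may be partly technical, and 3 arrays a genotype limit the precision.

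Deviations from genotype means had correlations of 0.378, 0.214 and 0.192 for same-number arrays and of -0.257 to 0.0751 for others. Differences of same-number arrays are therefore given for Saa, and the array number was a block in an alternative fit. The main limma fit did not use the array number. The labels do not say what these numbers stand for. Members and lists were chosen with earlier results of these data known. Named genes are the Saa probe sets, the neighbours, the genes with the smallest p in each list (up to 4), the nearest genes by correlation, and Aire; the other list and marker genes named were chosen after their values were seen. Promoters were aligned with Biopython 1.88 (match 1, mismatch -1, gap opening -3, extension -1). Alternatives were other scalings, floors, filters and probe set rules, the block, and leaving out arrays.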

Additional observations from a re-analysis of the deposited data

How the results depend on the processing

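Saa3 and both Saa2 probe sets kept their direction under every alternative run. With 1 array left out the log2 differences ranged from -1.51 to -1.16 for Saa3, from -1.70 to -1.31 for Saa2 103465_f_at, from -0.97 to -0.23 for Saa2 100333_at, from -0.37 to 0.53 for Saa4 and from -0.40 to 0.42 for Saa-ps. Without both arrays numbered 2, added after the data were seen, Saa2 103465_f_at was at -1.19. On the values as deposited Saa3 and Saa2 103465_f_at lay at -1.07 and -1.26, and the median of all tested genes lay at 0.18 instead of 0.05. All genes gave 79 lower and 23 higher calls. These were 80 and 63 on the values as deposited, 74 and 57 after median scaling, 103 and 46 under the higher floor (40th percentile), 220 and 154 with the replicate block, 12 and 4 without a filter, and 0 and 0 without both arrays numbered 2. Without 1 array they ranged from 0 to 51 lower and from 0 to 8 higher. The zeros came without wild-type array 3, where limma gave 381 lower and 451 higher genes at an unadjusted p under 0.05, and without both arrays numbered 2, where it gave 270 and 226. Of the acute phase lists 4 genes were lower, against 1 without a filter, 0 without both arrays numbered 2 and 0 to 3 without 1 array. The block gave 1 higher gene. At an unadjusted limma p under 0.05 the lists gave 12 lower and 6 higher genes. These were 9 and 10 on the values as deposited (373 and 613 over all tested genes). They were 5 and 7 without wild-type array 2 (365 and 382 over all tested genes) and 6 and 6 without wild-type array 3. Without both arrays numbered 2 they were 4 and 5. In the other settings more list genes were lower than higher. Neighbouring genes gave 1 call, 2 with the floor at the 40th percentile or the block, 0 without both arrays numbered 2, and 0 to 2 without 1 array. The causes were not tested. The number of arrays limits all of these, and Saa4 and Saa-ps are limited by signal near the floor.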
